A study of Arabidopsis thaliana with 36 samples.

Results

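CPNIFS and SUFE2 are nuclear genes for the step that supplies sulfur to iron-sulfur clusters in plastids. They were chosen by name, as the probe sets that the platform annotation assigns to either symbol. This gave 2 of the 13350 genes that a probe set named on its own, and 2 of the 22746 probe sets tested: 261744_at for CPNIFS (locus AT1G08490) and 245193_at for SUFE2 (locus AT1G67810), 1 probe set for each gene.

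Iron-sulfur clusters are cofactors of photosynthesis, of sulfite and nitrite reduction and of several biosyntheses in plastids. CPNIFS is a cysteine desulfurase, which takes sulfur from cysteine and holds it as a persulfide. SUFE proteins activate it by accepting that sulfur, and the SUF scaffold then joins sulfur and iron into a cluster that carriers such as HCF101 pass on. SUFE2 is an activator related to SUFE1 and is known mainly from flowers and pollen. Iron and sulfur are both inputs of the pathway, and the comparisons ask how the genes on the sulfur side read when iron is withheld.

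Arrays were run on roots and shoots of Arabidopsis thaliana plants of 2 ecotypes, Kas-1 and Tsu-1, named Kas and Tsu on the samples and grown in hydroponics on rockwool. At 24 d of age they were moved to medium without iron for 24 h or 48 h, or to complete medium with 50 µM Fe(III)-EDDHA for 24 h, which gave 12 groups of 3 arrays. The groups were Kas roots without iron at 24 h, Kas roots without iron at 48 h and Kas roots on complete medium, and likewise Tsu roots, Kas shoots and Tsu shoots. Whether the arrays of a group stand for separate plantings is not stated in the labels. The p-values therefore rest on the spread of these samples alone, which could be technical.

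The tissue named in the titles was checked, since the extraction protocol names rosettes for every sample. The mean of 3 root markers was 7.60 to 8.64 over root arrays and 4.00 to 4.68 over shoot arrays, and the mean of 3 photosynthesis genes was 4.01 to 5.53 over root arrays and 11.98 to 12.27 over shoot arrays. None of the 6 floral markers listed had a probe set that named it, so floral tissue was not checked.

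Not every array read as the ecotype on its label. An ecotype index, set to 0 at Tsu and 1 at Kas by 81 probe sets that separated the ecotypes at 48 h without iron, lay between 0.25 and 0.75 on 10 arrays. CPNIFS and SUFE2 were left out of it, although SUFE2 met its rule (no overlap and 2 log2 units or more in both tissues). These arrays were replicate 1 of Kas roots without iron at 24 h (0.573), replicates 2 and 3 of Kas roots on complete medium (0.565 and 0.665), all 3 of Tsu roots without iron at 24 h (0.413 to 0.669), replicate 3 of Tsu roots on complete medium (0.372) and all 3 of Tsu shoots without iron at 24 h (0.398 to 0.565). All iron comparisons in roots, through the groups on complete medium, and the one in Tsu shoots at 24 h rest on some of them. Outside this band, replicates 1 and 2 of Tsu roots on complete medium stood at 0.235 and 0.125. Tsu roots at 48 h without iron stood at -0.0491 to 0.0548. Fits without the arrays between the ecotypes keep those replicates on complete medium.

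In the 2 tissues the pair ran opposite ways: CPNIFS read lower in roots than in shoots, and SUFE2 read higher in roots. CPNIFS ranged from 5.53 to 6.23 over the 18 root arrays and from 6.82 to 7.64 over the 18 shoot arrays, on the log2 scale of the deposited values. No root array reached the lowest shoot array. SUFE2 ranged from 3.88 to 8.36 over root arrays and from 2.55 to 5.56 over shoot arrays, and these ranges overlap, although within each ecotype and treatment every root array lay above every shoot array. SUFE2 read below the lower quartile of all probe sets on 5 of 18 shoot arrays, where that quartile lay between 2.72 and 2.90. No detection calls were used, so such a value is a dim reading and not a statement of absence.

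**Figure D1:**
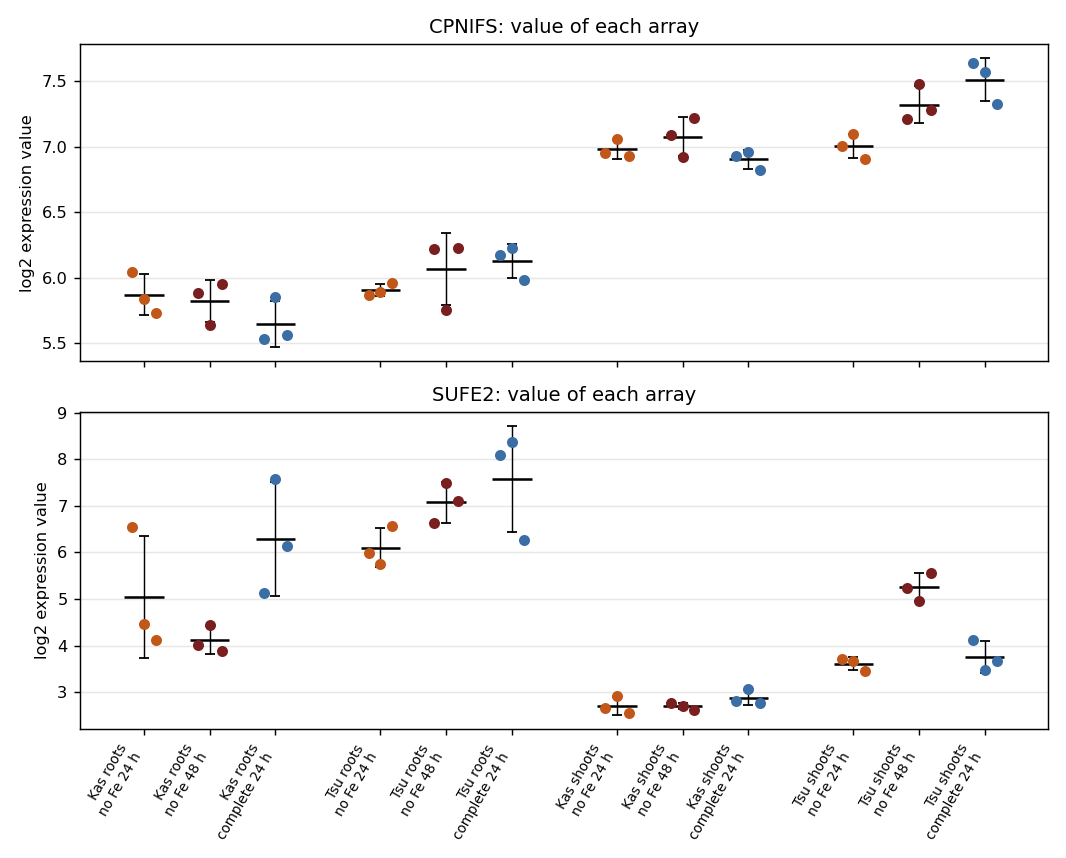
Log2 expression values of CPNIFS (upper panel) and SUFE2 (lower panel) on each of the 36 arrays, by group; each point is 1 array, the bar is the group mean and the whisker 1 SD (n = 3). CPNIFS lay between 5.53 and 6.23 in roots and between 6.82 and 7.64 in shoots, while SUFE2 spread from 3.88 to 8.36 in roots and read 4.96 to 5.56 in Tsu shoots at 48 h without iron, above the other shoot groups.

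Roots and shoots were compared within each ecotype and treatment with limma over all 36 arrays, with Benjamini-Hochberg adjustment over all probe sets. CPNIFS was lower in roots in 6 of 6 comparisons, and the size varied little. On complete medium it averaged 5.65 ± 0.18 in Kas roots and 6.90 ± 0.08 in Kas shoots (SD, n = 3 each), a log2 difference of -1.25 (SE 0.13, limma adjusted p = 3.41e-10), which is 2.39-fold lower. In Tsu on complete medium the difference was -1.38 (adjusted p = 3.46e-11). Without iron it was -1.11 and -1.25 in Kas at 24 h and 48 h, and -1.10 and -1.25 in Tsu.

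SUFE2 was higher in roots in 6 of 6 comparisons. Its root excess was 3.39 on the log2 scale in Kas on complete medium (SE 0.48, limma adjusted p = 3.39e-07), a fold of 10.5, and 3.82 in Tsu (adjusted p = 3.5e-08), a fold of 14.1. Every one of these calls but 1 held without each array, but sizes moved: in Kas on complete medium the excess was 2.75 without replicate 2 of the roots, 3.96 without their replicate 1 and 2.25 without the arrays between the ecotypes, and in Tsu on complete medium it was 4.47 without replicate 3 of the roots. The excess was smaller in each group without iron: 2.33 at 24 h and 1.41 at 48 h in Kas, and 2.49 and 1.82 in Tsu. Without replicate 1 of Kas roots at 24 h without iron, the Kas value at 24 h was 1.58. The call that was lost was Kas at 48 h, whose adjusted p of 0.0136 became 0.0574 without replicate 2 of Kas roots at 48 h without iron. Tissue differences were common on this array: 53.8%, 54.4% and 55.5% of all probe sets passed in Kas at 24 h without iron, at 48 h without iron and on complete medium, and 55.1%, 56.3% and 56.8% in Tsu. In bulk tissue, fewer cells of a type and less RNA per cell cannot be told apart.

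The iron effect itself was also compared between tissues, as the change in roots minus the change in shoots. For SUFE2 this was -1.07 in Kas at 24 h, -1.98 in Kas at 48 h, -1.32 in Tsu at 24 h and -2.0 in Tsu at 48 h, and none passed (limma adjusted p = 0.477, 0.0694, 0.266 and 0.116). Of all probe sets 2.86%, 8.29%, 8.05% and 2.41% passed in these 4 comparisons. Without the arrays between the ecotypes, an alternative chosen after seeing the data, the 48 h values moved opposite ways: to -0.84 in Kas, which did not pass, and to -2.65 in Tsu (SE 0.30, limma adjusted p = 1.57e-05). For CPNIFS the same contrasts were 0.15, 0.00, 0.29 and 0.13, with intervals that reached from -0.37 to 0.65 and no adjusted p below 0.38.

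Of the 16 iron tests of the pair, the one with the lowest adjusted p was in Tsu shoots at 48 h, where SUFE2 rose. It read 5.24, 4.96 and 5.56 on the 3 arrays at 48 h without iron, against 4.13, 3.47 and 3.67 on complete medium. All arrays without iron lay above all arrays with it. The means were 5.25 ± 0.30 without iron and 3.76 ± 0.34 on complete medium (SD, n = 3 each), a log2 change of 1.50 (SE 0.16, 95% interval 1.16 to 1.84, limma adjusted p = 2.28e-05) or 2.82-fold. Of all probe sets, 4.34% passed in this comparison. The call held when each array was left out in turn, with changes of 1.35 to 1.68. The ecotype index of the arrays on complete medium was 0.00603 to 0.0294, at the Tsu level, and the arrays at 48 h were among those that set it. The root markers EXPA7, EXPA18 and PYK10 differed by 0.25, 0.13 and -0.53 in the same comparison, and none passed.

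At 24 h no difference of SUFE2 passed in Tsu shoots. It read 3.71, 3.67 and 3.45 on the arrays without iron, against 4.13, 3.47 and 3.67 on complete medium, a log2 difference of -0.15 (95% interval -0.49 to 0.19, adjusted p = 0.626). Without iron, the 48 h arrays minus the 24 h arrays gave 1.64 (SE 0.16, limma adjusted p = 6.04e-07), in a comparison in which 10.7% of all probe sets passed. The arrays without iron at 24 h, which enter both differences, had an ecotype index of 0.398 to 0.565. The part of that in these values was not tested. Plants on complete medium were taken only at 24 h. At 48 h the lack of iron and a further day of growth cannot be told apart, and both iron comparisons of an ecotype and tissue share their arrays with iron.

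No difference of SUFE2 passed in Kas shoots. It read 2.66, 2.93 and 2.55 without iron at 24 h, 2.77, 2.71 and 2.63 without iron at 48 h, and 2.81, 3.07 and 2.78 on complete medium. These are dim readings that lie close together. The log2 differences were -0.17 at 24 h (95% interval -0.51 to 0.17, adjusted p = 0.707) and -0.18 at 48 h (-0.52 to 0.16, adjusted p = 0.647), with 1.86% and 4.11% of all probe sets passing. The 48 h arrays minus the 24 h arrays without iron gave -0.01 (adjusted p = 0.993, 0.378% of all passing).

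The responses of the 2 ecotypes were tested against each other. The change of SUFE2 in Kas shoots minus that in Tsu shoots at 48 h was -1.68 (SE 0.23, 95% interval -2.16 to -1.20, limma adjusted p = 0.000658), where 3.94% of all probe sets passed. It passed without each of the 12 arrays in turn, at -1.87 to -1.53. The Kas arrays in it gave dim readings of 2.63 to 3.07, near the lower quartile of all probe sets (2.72 to 2.90). Equal match of the probe set to both ecotypes was not tested. At 24 h the same contrast was -0.03 (adjusted p = 0.964), and it holds the Tsu arrays with an index of 0.398 to 0.565. The rise in Tsu shoots and the ecotype contrast at 48 h both lost their call when roots and shoots entered 1 fit (adjusted p = 0.106 and 0.246): the spread of SUFE2 between replicates, pooled over the groups of a tissue, was 0.91 in roots and 0.22 in shoots.

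**Figure D2:**
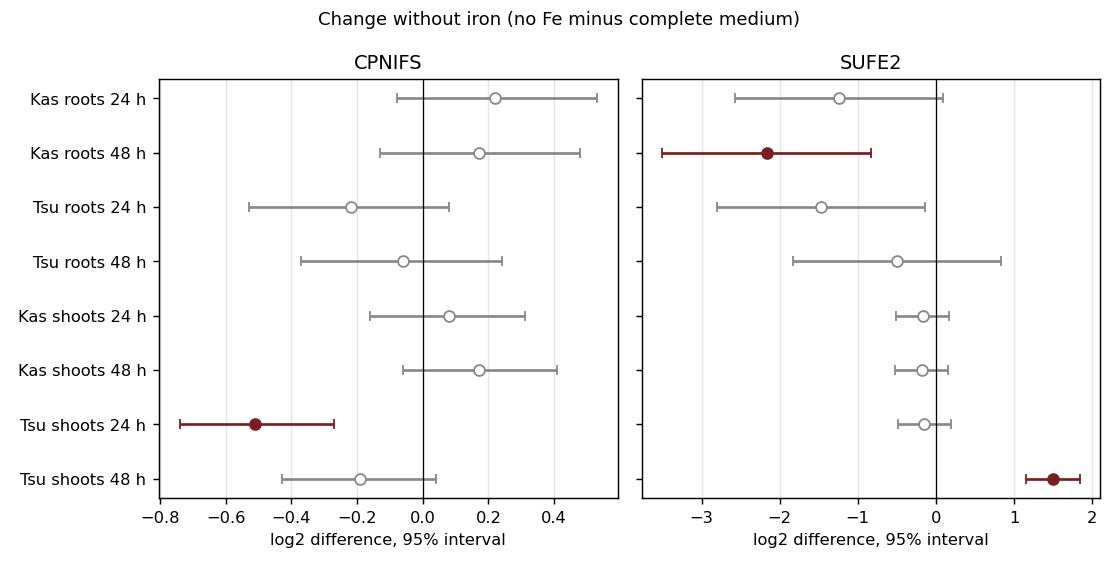
Log2 change of CPNIFS (left) and SUFE2 (right) without iron, as the group without iron minus the complete-medium group, in 8 comparisons; points are limma estimates and bars are 95% intervals, filled where the adjusted p was below 0.05. SUFE2 stood at 1.50 in Tsu shoots at 48 h and at -2.16 in Kas roots at 48 h, and CPNIFS at -0.51 in Tsu shoots at 24 h; the x axes differ between panels.

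In roots SUFE2 read lower without iron in all 4 comparisons, and 1 of them passed. In Kas roots at 48 h it read 4.02, 4.45 and 3.88 without iron, against 5.14, 7.57 and 6.13 on complete medium. The groups did not overlap, but the arrays with iron spanned more than 2 log2 units. The means were 4.12 ± 0.30 without iron and 6.28 ± 1.22 on complete medium (SD, n = 3 each), and the change was -2.16 (SE 0.63, 95% interval -3.50 to -0.83, limma adjusted p = 0.0491), with 6.73% of all probe sets passing. This call was lost without 5 of the 6 arrays in turn, every one except replicate 1 on complete medium. Without replicate 2 on complete medium it was -1.52 (adjusted p = 0.144). It was lost as well with quantile normalization (adjusted p = 0.056) and with only the arrays compared in the fit (0.0576). Of the photosynthesis genes in these roots, PSAN fell (-1.36, limma adjusted p = 0.00991), PSAE-1 differed by 0.83 and LHCB4.1 by -0.36, and the part of this in the SUFE2 result was not tested.

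The other 3 root comparisons of SUFE2 did not pass. In Kas roots at 24 h it read 6.54, 4.46 and 4.12 without iron, for a difference of -1.24 from complete medium (95% interval -2.57 to 0.09, adjusted p = 0.396). In Tsu roots it read 5.99, 5.76 and 6.56 without iron at 24 h, 6.63, 7.49 and 7.10 without iron at 48 h, and 8.09, 8.36 and 6.27 on complete medium. The differences in Tsu were -1.47 at 24 h (adjusted p = 0.17) and -0.50 at 48 h (adjusted p = 0.727). The share of all probe sets that passed was 1.94% for Kas at 24 h, 6.98% for Tsu at 24 h and 1.62% for Tsu at 48 h. Without replicate 3 of Tsu roots on complete medium, the 24 h difference in Tsu was -2.12 (adjusted p = 0.0423), and the 48 h difference was -1.15 (adjusted p = 0.324). The 48 h arrays minus the 24 h arrays without iron gave -0.92 for SUFE2 in Kas roots and 0.97 in Tsu roots (adjusted p = 0.582 and 0.435), with 0.277% and 7.87% of all probe sets passing.

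In roots, arrays of the same ecotype label differed in SUFE2 between those inside and those outside the index band. Among Kas root arrays, the 3 with an index of 0.565 to 0.665 read 6.13 to 7.57 and the 6 with an index of 0.958 to 1.05 read 3.88 to 5.14. Among Tsu root arrays, the 4 with an index of 0.372 to 0.669 read 5.76 to 6.56 and the 5 with an index of -0.0491 to 0.235 read 6.63 to 8.36. Neither pair of ranges overlapped. The relation did not hold throughout: Tsu roots at 48 h without iron, at -0.0491 to 0.0548, read 6.63 to 7.49. Replicates 1 and 2 of Tsu roots on complete medium, at 0.235 and 0.125, read higher (8.09 and 8.36). Of the Kas arrays near 1, only replicate 1 on complete medium (5.14) had iron. In the Kas band only replicate 1 at 24 h (6.54) lacked iron. The Tsu band held all arrays at 24 h without iron and replicate 3 on complete medium. The 48 h arrays of both ecotypes were among those that set the index. SUFE2 met the rule for its probe sets on them (-2.96 in roots and -2.55 in shoots), so the SUFE2 level at its ends was given beforehand. Index and treatment cannot be fully told apart from these ranges. With the index as a covariate the change in Kas roots at 48 h was -1.04 (SE 0.37, adjusted p = 0.106), and without the arrays between the ecotypes it was -1.02 (adjusted p = 0.0978), a fit in which the complete-medium group kept 1 array that was assumed to vary like the other groups. The same 2 settings gave -1.70 and -1.15 in Tsu roots at 48 h (adjusted p = 0.0402 and 0.0434), against -0.50 with all arrays and no covariate. What the intermediate index stems from is not known, and its part in the root differences of SUFE2 was not tested beyond these values.

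**Figure D3:**
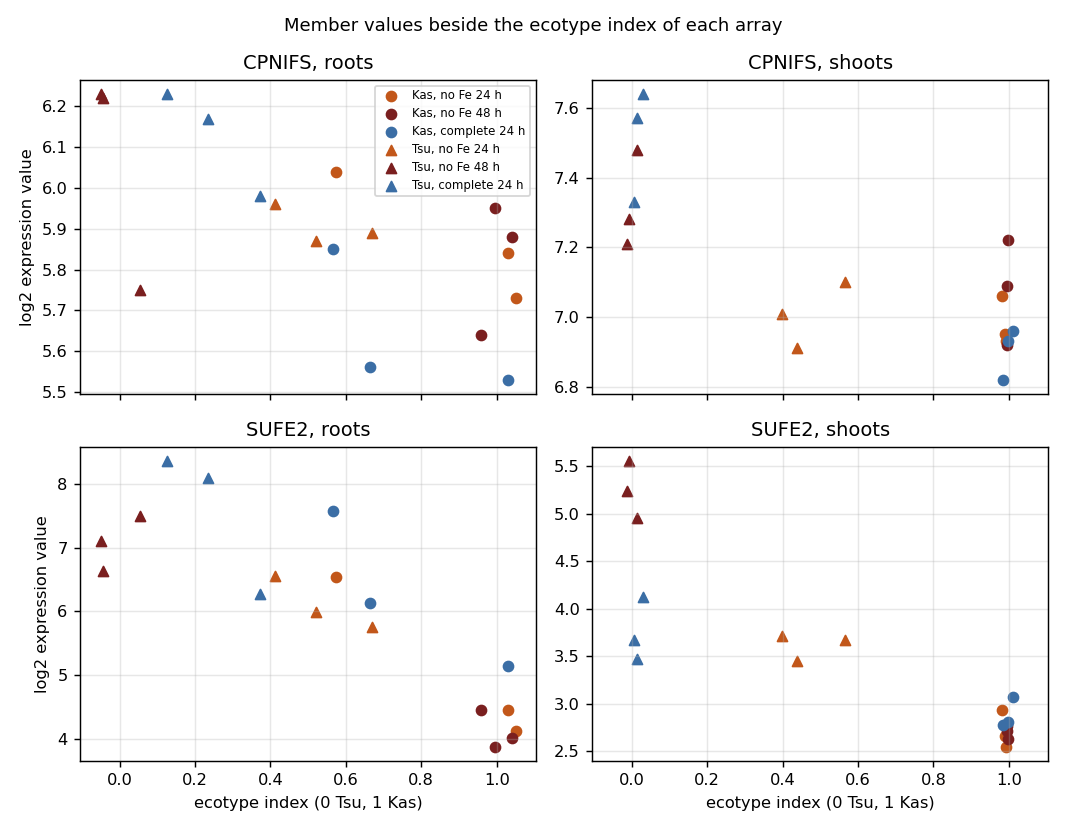
Log2 expression of CPNIFS (upper row) and SUFE2 (lower row) against the ecotype index of each array, in roots (left) and shoots (right); circles are arrays labelled Kas, triangles arrays labelled Tsu, and colours give the treatment. In roots SUFE2 read 3.88 to 5.14 on the 6 Kas arrays near an index of 1, and 6.13 to 7.57 on the 3 Kas arrays at 0.565 to 0.665. Of the Kas root arrays near 1, all but replicate 1 on complete medium were without iron.

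CPNIFS changed in 1 of 8 iron comparisons: it fell in Tsu shoots at 24 h. It read 7.01, 7.10 and 6.91 without iron, against 7.64, 7.57 and 7.33 on complete medium, with no overlap. The means were 7.01 ± 0.10 without iron and 7.51 ± 0.16 on complete medium (SD, n = 3 each), a change of -0.51 (SE 0.11, 95% interval -0.74 to -0.27, limma adjusted p = 0.00319), which is 1.42-fold lower. It passed without each array in turn, between -0.60 and -0.45. This was the comparison with the most calls of the 8, at 16.1% of all probe sets, and its arrays without iron had an index of 0.398 to 0.565. Their CPNIFS values overlapped those of all 9 Kas shoot arrays (6.82 to 7.22). With the index as a covariate the change was -1.06 (SE 0.50, adjusted p = 0.975). In shoots the index varied mostly within the Tsu group at 24 h without iron (SD 0.0873, at most 0.014 in the other shoot groups). That fit takes its slope mainly from the arrays of this group and cannot separate the index from the treatment. The alternative without such arrays could not be fitted, since none of the group's arrays would be left.

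At 48 h in Tsu shoots CPNIFS read 7.21, 7.48 and 7.28 without iron, a difference of -0.19 from complete medium (95% interval -0.43 to 0.04, adjusted p = 0.408). In Kas shoots it read 6.95, 7.06 and 6.93 without iron at 24 h, 7.09, 6.92 and 7.22 without iron at 48 h, and 6.93, 6.96 and 6.82 on complete medium, and the groups overlapped. The differences in Kas shoots were 0.08 at 24 h and 0.17 at 48 h (95% intervals -0.16 to 0.31 and -0.06 to 0.41, adjusted p = 0.837 and 0.473). The 48 h arrays minus the 24 h arrays without iron gave 0.10 in Kas shoots and 0.32 in Tsu shoots (adjusted p = 0.85 and 0.0801). The change in Kas shoots minus that in Tsu shoots was 0.58 at 24 h (SE 0.16, limma adjusted p = 0.02), where 11.2% of all probe sets passed, and 0.36 at 48 h (adjusted p = 0.23). The 24 h contrast narrowly missed the threshold without any 1 of 4 arrays (adjusted p 0.0508 to 0.0552).

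In roots no iron test of CPNIFS passed. It read 6.04, 5.84 and 5.73 in Kas without iron at 24 h, 5.88, 5.64 and 5.95 in Kas without iron at 48 h, and 5.53, 5.85 and 5.56 in Kas on complete medium. In Tsu it read 5.87, 5.89 and 5.96 without iron at 24 h, 6.22, 5.75 and 6.23 without iron at 48 h, and 6.17, 6.23 and 5.98 on complete medium. The differences from complete medium were 0.22 and 0.17 in Kas and -0.22 and -0.06 in Tsu, at 24 h and 48 h, and all 4 intervals lay between -0.53 and 0.53. A change of CPNIFS of more than 0.53 on the log2 scale in roots lies outside these intervals. The ecotype contrasts of the root changes did not pass at 24 h (0.44, adjusted p = 0.22, 5.04% of all probe sets passing) or at 48 h (0.24, adjusted p = 0.476, 7.94% passing), nor did those of SUFE2 (0.23 and -1.66, adjusted p = 0.908 and 0.248). The 48 h arrays minus the 24 h arrays without iron gave -0.05 in Kas roots and 0.16 in Tsu roots (adjusted p = 0.932 and 0.621).

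Both genes had a lower mean in Kas than in Tsu in all 6 settings. The median of all probe sets was also below 0 in all 6, between -0.09 and -0.04. With quantile normalization that median was -0.01 to 0.03, and the sign turned for CPNIFS at 24 h without iron (0.09 in roots and 0.06 in shoots). The difference passed in 4 of 6 for SUFE2 and in 2 of 6 for CPNIFS. In shoots SUFE2 was lower in Kas, with log2 differences of -0.90 at 24 h without iron, -2.55 at 48 h without iron and -0.87 on complete medium (SE 0.16 each, limma adjusted p = 0.000602, 2.12e-10 and 0.000304), with no overlap of arrays in any of the 3. With roots and shoots in 1 fit, the first and last of these lost the call (adjusted p = 0.225 and 0.192). At 48 h the means were 2.70 ± 0.07 in Kas shoots and 5.25 ± 0.30 in Tsu shoots (SD, n = 3 each), a fold of 5.86. This fold rests on dim Kas readings, near the lower quartile of all probe sets (2.72 to 2.90 over shoot arrays). Ecotype differences were frequent in shoots, with 20.2%, 36.7% and 33.2% of all probe sets passing in the same order. In roots SUFE2 differed by -2.96 at 48 h without iron, 4.12 ± 0.30 in Kas and 7.07 ± 0.43 in Tsu (SD, n = 3 each; SE 0.63, limma adjusted p = 0.00282), a fold of 7.76. Those 6 arrays are among the ones that set the index, and the call held without each of them. At 24 h without iron and on complete medium the root differences were -1.07 and -1.29 and did not pass (adjusted p = 0.318 and 0.186). In roots and in shoots, every Tsu array at 24 h without iron had an index between the ecotypes. The part of that in the 24 h differences of SUFE2 was not tested. Without the arrays between the ecotypes the difference on complete medium was -3.09 (adjusted p = 0.000207), and without replicate 2 of Kas roots on complete medium alone it was -1.94 (adjusted p = 0.0442). Of all probe sets 11.4% passed at 24 h without iron, 24.7% at 48 h without iron and 9.86% on complete medium, where the count of 2243 probe sets became 460 without replicate 1 of Kas roots, 3748 without their replicate 2, 608 without their replicate 3 and 1033 without replicate 2 of Tsu roots.

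CPNIFS was lower in Kas on complete medium in both tissues. In shoots it averaged 6.90 ± 0.08 in Kas and 7.51 ± 0.16 in Tsu (SD, n = 3 each), a difference of -0.61 (SE 0.11, limma adjusted p = 0.000246) or 1.53-fold, and the call held without each array. In roots the means were 5.65 ± 0.18 in Kas and 6.13 ± 0.13 in Tsu, a difference of -0.48 (SE 0.14, limma adjusted p = 0.045). That root call was lost without replicate 1 or 3 of Kas roots or replicate 1 or 2 of Tsu roots on complete medium (adjusted p = 0.179, 0.149, 0.0804 and 0.123), and also with quantile normalization (0.0735), with an intensity trend (0.0511) or without the arrays between the ecotypes (-0.68, adjusted p = 0.0979). Without iron the differences were -0.04 at 24 h and -0.25 at 48 h in roots, and -0.03 at 24 h and -0.25 at 48 h in shoots, and none passed (lowest adjusted p = 0.0937). Every Tsu array without iron at 24 h had an index between the ecotypes, 0.413 to 0.669 in roots and 0.398 to 0.565 in shoots. The part of that in the 24 h differences of CPNIFS was not tested. Whether probes match the Kas and Tsu sequences equally was not tested, so a difference between ecotypes is one of signal on this array.

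**Figure D4:**
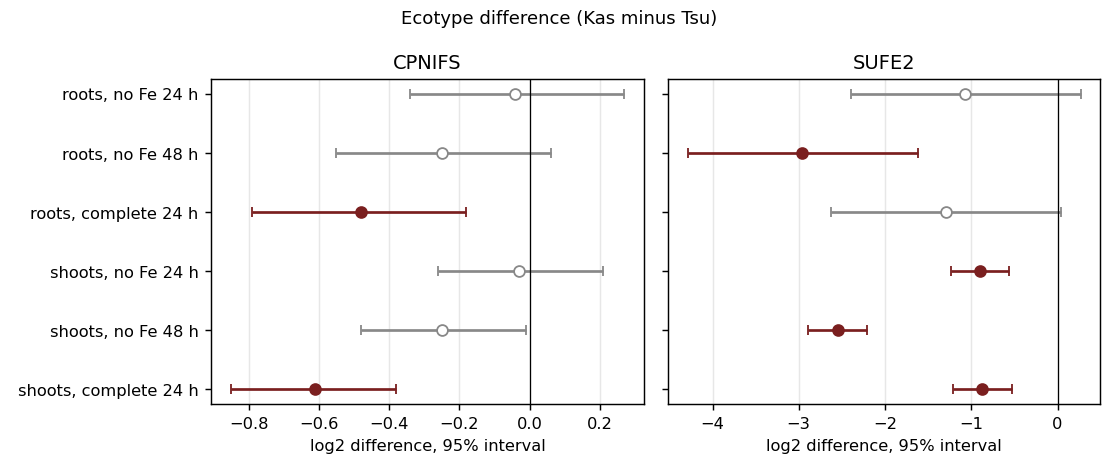
Log2 difference between ecotypes, Kas minus Tsu, for CPNIFS (left) and SUFE2 (right) in 3 treatments of roots and shoots; points are limma estimates with 95% intervals, filled where the adjusted p was below 0.05. All 12 estimates were below 0, in comparisons where the median of all probe sets lay between -0.09 and -0.04. SUFE2 reached -2.96 in roots and -2.55 in shoots at 48 h without iron. The x axes differ between panels.

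The order of the group means was read against the ranges of neighbouring groups. For SUFE2 in shoots, Tsu at 48 h without iron was highest and did not overlap the next group. Tsu on complete medium and Tsu at 24 h without iron overlapped each other, and the 3 Kas groups lay below both without overlap. For SUFE2 in roots the order from the highest was Tsu on complete medium, Tsu at 48 h without iron, Kas on complete medium, Tsu at 24 h without iron, Kas at 24 h without iron and Kas at 48 h without iron, and every neighbouring pair overlapped. For CPNIFS every neighbouring pair overlapped in both tissues, with Tsu on complete medium highest and Kas on complete medium lowest in each. In roots, 99.6% of probe sets had a smaller spread between replicates than SUFE2, against 36.5% for CPNIFS (pooled SD 0.91 and 0.17). In shoots these shares were 80.1% for SUFE2 and 17.7% for CPNIFS. The root SD of SUFE2 was 1.22 and 1.14 in Kas and Tsu on complete medium and 1.31 in Kas at 24 h without iron. Each of these groups held arrays inside and outside the index band. It was 0.30 to 0.43 in the other root groups, and the part of the index in this spread was not tested.

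The values of the pair were set against each other across arrays. Pearson's r between CPNIFS and SUFE2 was 0.53 over the 18 root arrays and 0.57 over the 18 shoot arrays, and -0.57 over all 36, where the opposite tissue levels enter. These are descriptions, since the arrays share ecotype, tissue and treatment. After each value was centred on its tissue mean, the named probe sets nearest to SUFE2 over the 36 arrays were AT1G17860 (r = 0.89), AT1G06760 (0.88), GSTU28, a glutathione transferase (0.88), AT5G03250 (0.87) and BGLU46, a beta-glucosidase (0.87). The nearest to CPNIFS were ULT1 (0.81), AT4G11970 (0.81), RAD51B, a recombination protein (0.80), ATBRXL2 (0.80) and AT2G20360 (0.79). The 99th percentile over all probe sets was 0.77 for SUFE2 and 0.70 for CPNIFS. Without centring, GSTU28 led for SUFE2 (0.94), followed by AT3G45310, AT5G58520, CYB-1 and AT5G61530 (0.92 to 0.94), and AT3G57800 led for CPNIFS (0.98), followed by AT3G20230, AT1G45230, FZL, a plastid membrane GTPase, and AT2G17033 (0.97 each).

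Few other genes of the pathway were measured under a name. Of 14 listed genes of the plastid SUF pathway, 3 had a named probe set: the pair and HCF101, which hands clusters to photosystem I. With 5 of 24 genes for mitochondrial and cytosolic assembly, 3 of 19 plastid iron-sulfur proteins and 2 of 18 genes of sulfate uptake and cysteine synthesis, 11 genes stood beside the pair. Of these 11, 1 passed in 1 of the 8 iron comparisons: THIC, an iron-sulfur enzyme of thiamine synthesis, fell in Kas shoots at 48 h by 0.37 on the log2 scale, with means of 10.63 ± 0.05 without iron and 11.00 ± 0.08 on complete medium (SD, n = 3 each; limma adjusted p = 0.0432). In the other 7 comparisons 0 of 11 passed by limma. Over all probe sets 4.11% passed in Kas shoots at 48 h and 1.62% to 16.1% in the others, and a count of 0 or 1 of 11 lies near these shares. The median log2 difference of the 11 lay between -0.19, in Kas roots at 48 h, and 0.11, in Tsu shoots at 48 h, where the medians of all probe sets were 0.04 and 0.00.

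In Tsu shoots at 48 h, where SUFE2 rose by 1.50, the other 11 differed by -0.15 to 0.42. HCF101 differed by -0.15, ISU1, the mitochondrial scaffold, by 0.20, SIR, the plastid sulfite reductase, by -0.08, and the ATP sulfurylases APS3 and APS4, which start sulfate assimilation, by 0.00 and 0.42. In Tsu shoots at 24 h, where CPNIFS changed by -0.51, HCF101 differed by -0.32 and did not pass. In Kas roots at 48 h SUFE2 read lower, with a call that was not stable. There APS3 differed by -0.51 and THIC by 0.47, and neither passed. The values of 3 measured markers of iron deficiency were read as well. Their list was chosen with earlier results of these data known, so they are no independent check of the medium. All 3 rose in Tsu roots at 48 h and in Tsu shoots at both times, and 2 in Kas shoots at 48 h. In Kas roots at 48 h, Tsu roots at 24 h and Kas shoots at 24 h 1 each rose, and 0 of 3 passed in Kas roots at 24 h. Of all probe sets 1.62% to 16.1% passed in the iron comparisons. Of the markers, AT1G47400, entered in the list of iron markers as the signalling peptide IMA1, rose by 2.34 in Tsu shoots and by 2.63 in Kas roots at 48 h (limma adjusted p = 0.000162 and 0.00359), while in Kas roots at 48 h the transcription factor genes BHLH101 and PYE differed by 0.79 and 0.49 and did not pass (adjusted p = 0.34 and 0.152).

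**Figure D5:**
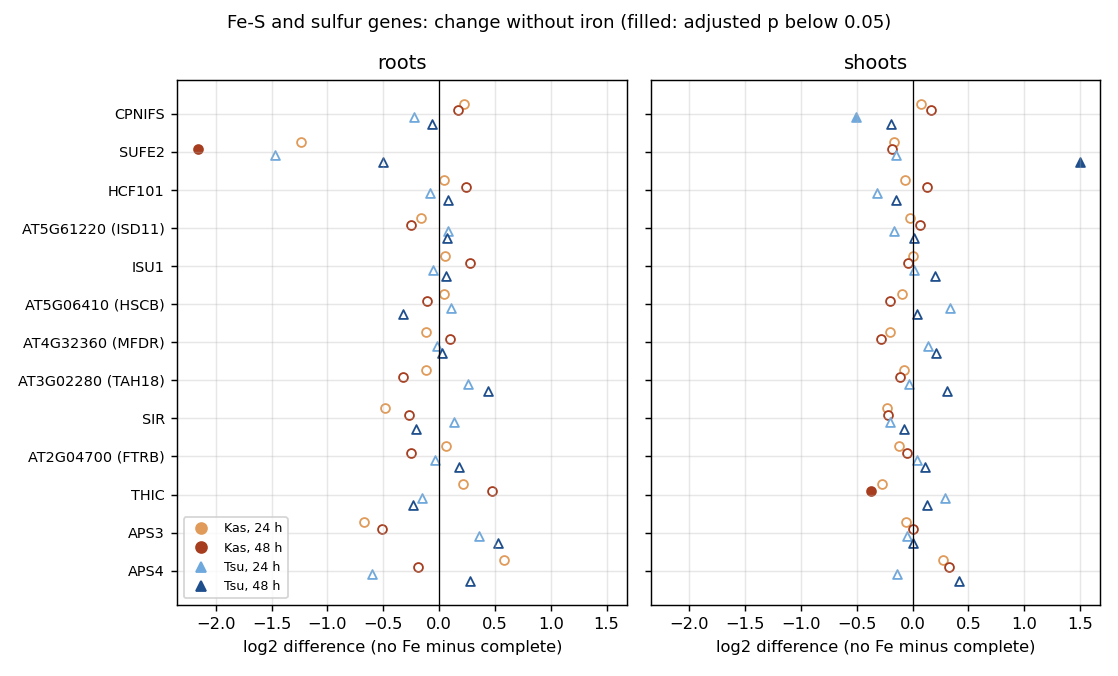
Log2 change without iron, against complete medium, of CPNIFS, SUFE2 and 11 further iron-sulfur and sulfur genes in roots (left) and shoots (right); circles are Kas, triangles Tsu, lighter colours 24 h and darker colours 48 h, filled where the adjusted p was below 0.05. Filled points are SUFE2 in Kas roots and Tsu shoots at 48 h, CPNIFS in Tsu shoots at 24 h and THIC in Kas shoots at 48 h; names in brackets are those entered in the list by locus.

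Tissue differences of these genes ran both ways. HCF101 was lower in roots by about the same amount in each setting, from -5.28 to -4.91 on the log2 scale, and THIC by -6.93 to -5.60. AT2G04700, entered as FTRB, the catalytic subunit of ferredoxin-thioredoxin reductase, was lower in roots by -3.35 to -2.97. APS4 was higher in roots, by 2.15 to 2.98, while APS3 was lower there, by -1.80 to -0.90, and all of these passed in each of the 6 comparisons, in which 53.8% to 56.8% of all probe sets passed. Between ecotypes, APS4 was lower in Kas at 48 h without iron in both tissues, with a log2 difference of -1.70 in roots and -1.0 in shoots (limma adjusted p = 5.94e-05 and 0.000271), where SUFE2 had -2.96 and -2.55. AT5G06410, entered as the co-chaperone HSCB, and SIR were higher in Kas shoots on complete medium, by 0.94 and 0.55 (limma adjusted p = 1.75e-05 and 0.000691), while HCF101 was lower there with CPNIFS and SUFE2 (-0.47, limma adjusted p = 0.00907). Counted over the 11 genes, Kas minus Tsu passed in roots for 0 at 24 h without iron, for 2 higher and 3 lower at 48 h without iron and for 1 lower on complete medium. In shoots it passed for 2 higher and 1 lower at 24 h without iron, and for 2 higher and 2 lower both at 48 h without iron and on complete medium. The shares of all probe sets were 11.4%, 24.7% and 9.86% in roots and 20.2%, 36.7% and 33.2% in shoots in the same order, and nothing particular to the 11 is read from the counts. The change without iron differed between ecotypes for APS4 in roots at 24 h (1.18, limma adjusted p = 0.039) and for THIC in shoots at 24 h (-0.56, limma adjusted p = 0.014), both in comparisons that hold arrays between the ecotypes, and for none of the 11 at 48 h.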

How the data were processed

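The authors deposited log2 expression values, 1 per probe set, from 36 arrays hybridised with biotin-labelled RNA, per the labels; the log2 scale was read from the values, which ran from 1.31 to 13.37 with array medians of 4.91 to 5.14. How the arrays were background-corrected, summarised and normalized is not stated in those sources, nor is the software, and the number of arrays limits the precision. The 64 control probe sets were left out and 22746 tested. Names came from the platform annotation, updated by Entrez identifier to RefSeq names of assembly TAIR10.1: 13513 probe sets named 1 gene (13436 of them matched there), 503 several and 8730 none. No columns were left unmapped and no 2 arrays were identical (highest correlation 0.996).

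Differences were tested with limma 3.58.1 in R 4.3.3 (lmFit, eBayes, 1 mean per group, two-sided), the 18 arrays of a tissue in 1 fit and all 36 for contrasts between tissues. Calls used p adjusted by Benjamini-Hochberg over all 22746 probe sets, at a threshold of 0.05. The procedure was run on simulated data with independent noise, the same spread in every group and no arrays between the ecotypes. That run cannot speak to such arrays or to groups of unequal spread. CPNIFS, SUFE2, the gene lists and the tests were chosen with earlier results of these data known. Both genes are given in every comparison, any list gene may be named, and pattern neighbours are the 5 highest r. Alternatives were a replicate block, quantile normalization, an intensity trend, a filter on dim probe sets (mean below 4), other sets of arrays, the ecotype index, and leaving out each array.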

Additional observations from a re-analysis of the deposited data

Results flagged for a closer look

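For SUFE2, the change without iron at 48 h differed between the ecotypes in shoots: the change in Kas minus that in Tsu was -1.68 (SE 0.23, limma adjusted p = 0.000658). Kas shoots, where SUFE2 read dim, differed by -0.18 and Tsu shoots by 1.50 from complete medium. All 3 Tsu arrays without iron lay above all 3 with it.

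For CPNIFS the change at 24 h differed between the ecotypes in shoots, by 0.58 (SE 0.16, limma adjusted p = 0.02), with differences of 0.08 in Kas and -0.51 in Tsu. The Tsu arrays without iron in this contrast had an ecotype index of 0.398 to 0.565, and the part of that in the difference was not tested.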

How the results depend on the processing

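Of 365 recalculations of the pair's 64 differences other than leaving out 1 array, 341 kept direction and side of the threshold. SUFE2 in Kas roots at 48 h, -2.16 with an adjusted p of 0.0491, lost its call with a replicate block (-2.16, adjusted p = 0.0523), quantile normalization (-2.12), the index as covariate (-1.04), only the arrays compared (-2.16) and without arrays between the ecotypes (-1.02). CPNIFS between ecotypes in roots on complete medium lost it with the replicate block (-0.48, adjusted p = 0.058), quantile normalization (-0.44), an intensity trend (-0.48) and without arrays between the ecotypes (-0.68). CPNIFS in Tsu shoots at 24 h lost its call with the index (-1.06), in a fit that cannot separate index from treatment there. With all 36 arrays in 1 fit, SUFE2 in shoots lost the rise in Tsu at 48 h (1.50), its ecotype contrast (-1.68) and the ecotype differences at 24 h without iron (-0.90) and on complete medium (-0.87), while Tsu roots at 24 h passed (-1.47). Calls were gained by SUFE2 in Tsu roots at 48 h with the index (-1.70) and without arrays between the ecotypes (-1.15), a setting that also gave calls to the ecotype difference in roots on complete medium (-3.09) and to the Tsu tissue contrast at 48 h (-2.65). Signs turned for differences that had not passed: with quantile normalization for CPNIFS between ecotypes at 24 h without iron in roots (0.09) and shoots (0.06) and for the SUFE2 ecotype contrast at 24 h in shoots (0.05), and without arrays between the ecotypes for the SUFE2 ecotype contrast at 48 h in roots (0.13) and for CPNIFS in Kas roots from 24 h to 48 h (0.04). Other causes than the construction of the setting were not tested.

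Leaving out each array in turn kept the direction and the side of the threshold in 444 of 480 values, though sizes moved among these too: for SUFE2 in roots, differences that did not pass ran from -1.99 to -0.59 in Kas at 24 h, from -1.81 to -0.60 between ecotypes at 24 h without iron and from -1.38 to -0.17 from 24 h to 48 h in Kas. The results with other values, as ranges for SUFE2, were -2.73 to -1.52 in Kas roots at 48 h, -2.12 to -1.08 in Tsu roots at 24 h, -0.29 to 0.04 in Tsu shoots at 24 h, -1.95 to -0.72 between ecotypes in roots on complete medium, -0.52 to 0.88 and -0.21 to 0.12 for the ecotype contrast at 24 h in roots and shoots, -0.09 to 0.10 from 24 h to 48 h in Kas shoots, 1.25 to 1.53 between tissues in Kas at 48 h, and -2.55 to -1.33, -1.98 to -0.93 and -2.65 to -1.61 for the tissue contrast in Kas at 48 h and Tsu at 24 h and 48 h. For CPNIFS they were -0.14 to 0.10 in Tsu roots at 48 h, -0.12 to 0.03 and -0.08 to 0.02 between ecotypes at 24 h without iron in roots and shoots, -0.58 to -0.42 between ecotypes in roots on complete medium, 0.52 to 0.67 for the ecotype contrast at 24 h in shoots and -0.12 to 0.05 from 24 h to 48 h in Kas roots. The filter on dim probe sets dropped SUFE2 in shoots, so it has no value there. Counts of all called probe sets moved more: in Kas roots at 24 h from 442 to between 12 and 1567, in Kas roots at 48 h from 1531 to between 417 and 2908, in Tsu roots at 24 h from 1587 to between 495 and 3221, in Tsu roots at 48 h from 368 to between 15 and 1349, in Kas shoots at 24 h and 48 h from 424 and 935 to between 161 and 590 and between 452 and 1192, and in Tsu shoots at 24 h and 48 h from 3666 and 988 to between 12 and 3915 and between 165 and 1993. Between ecotypes in roots, 2582 at 24 h without iron, 5629 at 48 h without iron and 2243 on complete medium went to 1399 to 3752, 3707 to 6908 and 460 to 4289. For the ecotype by iron contrasts, 1146 and 1805 in roots at 24 h and 48 h and 897 in shoots at 48 h went to 530 to 2615, 757 to 3656 and 468 to 1577. For 48 h minus 24 h, 63 in Kas roots, 1791 in Tsu roots and 86 in Kas shoots went to 14 to 425, 665 to 3029 and 31 to 174. For tissue by iron, 650 and 1886 in Kas and 548 in Tsu at 48 h went to 247 to 1631, 1046 to 2543 and 66 to 1009. The replicate block changed no count by more than 1.5 times and no other call of the pair. The numbers did not pair the arrays: same-numbered arrays had a median correlation of deviations of -0.02 in shoots and a range of -0.39 to 0.27 in roots, and 2 of 18 arrays in each tissue were closest to one of their own number.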
